A study of Mus musculus with 9 samples.

Results

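Shank3 lies near the far end of mouse chromosome 15, from 89499623 to 89560261 in mm10, and the genes described here are those within 10 Mb of it on either side. They were chosen by position, and comprise all Ensembl gene IDs of the count table whose GENCODE M21 position overlaps chromosome 15 from 79499623 to 99560261. The window holds 514 IDs. Shank3 itself and 4 further genes were left out by name, so that 509 of the 55471 IDs in the table remained. Of these 509 genes, 311 lie to the left of Shank3, toward the centromere, 197 lie to its right, and the lincRNA gene Gm15609 lies inside it. Protein-coding genes make up 253 of them. The other 256 include 64 processed pseudogenes, 46 lincRNAs, 34 miRNAs and 32 antisense transcripts.

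RNA was sequenced from the gastrocnemius, a calf muscle, of 5 Shank3Δ11(−/−) mice (KO1 to KO5) and 4 Shank3(+/+) mice (WT1 to WT4) at postnatal day 0 to 1, with 1 library per mouse. Both genotypes are on a C57BL/6 background per the labels. Shank3Δ11(−/−) mice lack exon 11 of Shank3 and, per the study's methods, come from matings of heterozygous C57BL/6JRj parents, while the wild type is named there as C57BL/6 without a substrain. The same methods state that newborn mice for biochemical work were sorted into these genotypes after genotyping. Litter, sex, the strain of the stem cells used for targeting and the number of backcrosses are given in none of the sources used here. All 5 Shank3Δ11(−/−) mice carry 2 copies of the deletion, and how far the DNA joined to it is alike in these copies and mice was not measured.

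Shank3 encodes a scaffold protein of the postsynaptic density that is also present in skeletal muscle. A gene-targeted allele is passed on together with the DNA beside it, and recombination in each generation shortens that shared segment. A sequence variant near a gene can alter its level in cis, so that neighbours of a targeted locus can differ between genotypes although their own sequence was not targeted. This is background on linkage. No sequence variant was measured here, and effects of losing Shank3, of linked sequence and of substrain on a gene of the window cannot be told apart in this design.

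Of the 509 genes, 261 had enough counts to be tested, and in 7 of these (2.68%, beside 0.686% of all genes tested) the mice did not overlap, meaning that the lowest mouse of 1 genotype lay above the highest mouse of the other. Dennd6b, Rabl2, Serhl and 1700120C14Rik were lower in all 5 Shank3Δ11(−/−) mice, and Arhgap8, Kif21a and Gm17546 were higher. RefSeq promoters (GRCm38.p6) were found for 4 of these 7 genes and are shown so that their starts can be compared. Each run is the 120 bases before the annotated start, 5′ to 3′ on the strand of the gene, with capitals marking a GC box (GGGCGG, or CCGCCC on the other strand), the binding sequence of Sp1-type factors.
Serhl, chr15:83100085-83100204, plus strand: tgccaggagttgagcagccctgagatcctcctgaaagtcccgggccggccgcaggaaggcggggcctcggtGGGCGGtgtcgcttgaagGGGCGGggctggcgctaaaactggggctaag
Dennd6b, chr15:89196475-89196594, minus strand: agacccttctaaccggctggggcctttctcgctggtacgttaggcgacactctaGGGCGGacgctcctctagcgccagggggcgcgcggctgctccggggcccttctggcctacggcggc
Rabl2, chr15:89591924-89592043, minus strand: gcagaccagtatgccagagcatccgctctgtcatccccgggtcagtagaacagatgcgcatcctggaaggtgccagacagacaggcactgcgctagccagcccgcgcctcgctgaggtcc
Kif21a, chr15:91049952-91050071, minus strand: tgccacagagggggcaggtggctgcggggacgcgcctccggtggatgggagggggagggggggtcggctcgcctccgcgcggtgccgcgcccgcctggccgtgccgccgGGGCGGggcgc
The Serhl run held 2 GC boxes, Dennd6b and Kif21a held 1 each, and Rabl2 held none, whereas 26.5% of 32851 mouse promoters of the same length held at least 1. CG dinucleotides numbered 17 in Kif21a, 13 in Dennd6b, 9 in Serhl and 7 in Rabl2, against a median of 3 over all promoters. No CCAAT box (CCAAT or ATTGG, in 21.3% of promoters) and no TATA box (TATAAA or TTTATA, in 6.34%) was found in the 4 runs. An E-box (CANNTG, in 40.2%) was found in Rabl2 and in Kif21a. The RefSeq start of Serhl lies 10699 bases inside the GENCODE gene, so its run belongs to a shorter transcript. Arhgap8, Gm17546 and 1700120C14Rik are named only.

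Counts per library totalled 26444372 to 40471957 with a median of 31435732. The study left out KO2 and KO4 for too few total reads, which its supplement relates to lower library quality. Their deposited counts totalled 28211941 and 40471957, and reads before counting were not seen here. Results for all 9 mice include both libraries. CPM denotes TMM-normalized counts relative to the size of each library. As a check of the tissue, 7 skeletal muscle markers summed to 50180 to 55220 CPM in Shank3Δ11(−/−) and 49080 to 56860 CPM in Shank3(+/+). Xist was above the Y-linked genes in 2 mice of each genotype. Shank3 was counted at 29.3, 25.7, 31.0, 35.0 and 34.4 CPM in KO1 to KO5 and at 32.8, 32.9, 32.4 and 38.5 CPM in WT1 to WT4, a log2 fold change of -0.14 (SE 0.11, p = 0.233 in edgeR, exact permutation test p = 0.262). The genotypes overlapped, and a count over the whole gene does not check the loss of exon 11.

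Of the 509 genes, 261 passed the filter on low counts, 159 to the left, 101 to the right and Gm15609 within Shank3. They comprise 199 protein-coding genes and 62 others. Of the 248 genes that did not pass, 98 had no count in any mouse and 150 had at most 93 counts summed over the 9 mice. Among the miRNA genes 3 of 34 passed. Levels of the genes that passed began at 0.256 CPM and had a median of 12.8 CPM. Abundant genes of the window include the RNA helicase gene Ddx17, the ribosomal protein gene Rpl3, and the tubulin genes Tuba1a and Tuba1b. Of these 4 genes Rpl3 had the largest difference, with a log2 fold change of -0.17 (p = 0.101 in edgeR, exact permutation test p = 0.0794).

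The first question was whether genes near Shank3 differed between the genotypes. In all 9 mice, 20 of 261 genes (7.66%) had an unadjusted p below 0.05 in edgeR, beside 2.03% of all 21735 genes tested. Of the 20 genes, 9 were higher in Shank3Δ11(−/−) (1.16% of all genes) and 11 were lower (0.874% of all genes). On the rest of chromosome 15 the share was 3.18% (18 of 566 genes), and on each of the 19 other chromosomes it lay between 0.963% and 2.86%. No gene of the window reached FDR below 25%, the study's criterion, in edgeR (lowest FDR 1.00), nor did any other gene (0%). DESeq2 gave 22 genes with unadjusted p below 0.05 (8.43%, beside 2.03% of all genes) and limma-voom gave 23 (8.81%, beside 1.97%). Only Cntn1 was called by DESeq2 in these mice (FDR = 0.166), where 0.0322% of all genes were called, and limma-voom called none.

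Mice did not overlap in 7 of the 261 genes (2.68%), beside 0.686% of all genes. The 3 genes higher in Shank3Δ11(−/−) stand beside 0.322% of all genes and the 4 lower ones beside 0.363%. On the rest of chromosome 15 the share was 0.883% (5 of 566 genes), and over the 19 other chromosomes it ranged from 0.0979% to 1.19%. Among the 248 genes below the filter none had counts that separated the genotypes. The filter asks for 0.318 CPM in 4 mice, and 9 of the 261 genes reached this in 4 mice of the higher genotype but not of the lower, among them Arhgap8, Gm17546, A130051J06Rik and Ccdc184 of the 20 genes. Such genes pass because they are high in 1 genotype, so their part in these counts is no sign of a difference. With at least 10 counts in every mouse, 18 of 230 genes (7.83%, beside 1.84% of all such genes) had p below 0.05 in edgeR, and mice did not overlap in 6 (2.61%, beside 0.665%).

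Over the 261 genes the log2 fold changes centred on zero, with a median of -0.0029 beside 0.0017 for all genes, and 129 genes were higher and 132 lower in Shank3Δ11(−/−). Their median size was 0.10, beside 0.09 for all genes and 0.10 on the rest of chromosome 15. A size of 0.2 or more was found for 79 genes (30.3%, beside 22.6% of all genes), and a size of 1 or more for 5. Genes at 5 CPM or more gave 13 of 167 with p below 0.05 (7.78%, beside 1.3% of all such genes), and genes under 5 CPM gave 7 of 94 (7.45%, beside 3.18%).

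**Figure D1:**
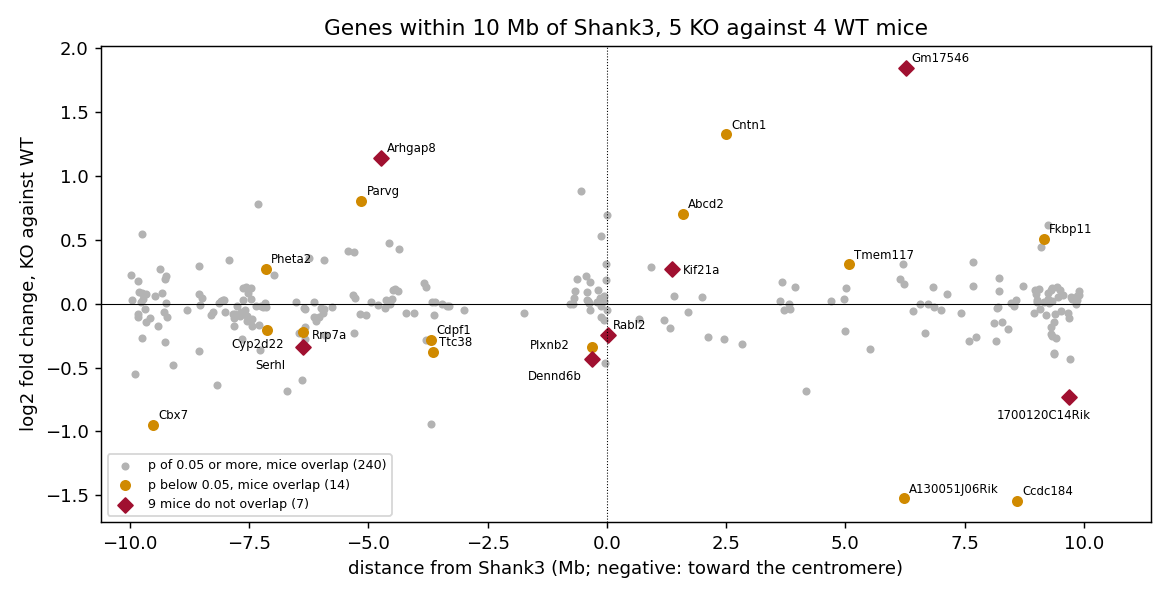
Log2 fold change of Shank3Δ11(−/−) against Shank3(+/+) (y axis) for the 261 genes that passed the filter, against distance from Shank3 in Mb (x axis, negative toward the centromere), 1 point per gene. Red diamonds are the 7 genes whose 9 mice do not overlap, orange points the 14 others with unadjusted edgeR p below 0.05, and both kinds lie on either side of zero but not from 0.5 to 1 Mb, where 8 genes were tested.

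By distance, 2 of the 26 genes up to 0.5 Mb from Shank3 had p below 0.05. From 0.5 to 1 Mb it was 0 of 8, from 1 to 2 Mb 2 of 8, from 2 to 5 Mb 4 of 41, and from 5 to 10 Mb 12 of 178. In the same order these were 7.69%, 0%, 25%, 9.76% and 6.74%, beside 2.03% of all genes. Genes whose mice did not overlap numbered 2, 0, 1, 1 and 3 in the same order, or 7.69%, 0%, 12.5%, 2.44% and 1.69% of the genes in each, beside 0.686% of all genes. The intervals within 2 Mb rest on at most 2 such genes each, and the difference between intervals was not tested. Log2 fold changes had a median size of 0.10, 0.11, 0.10, 0.09 and 0.11. The sizes did not run down with distance, and the Spearman correlation between distance and size was 0.00558 across the 261 genes, which share libraries and are not independent. Between mean CPM and size it was -0.479, with larger fold changes at lower levels. To the left 11 of 159 genes (6.92%) had p below 0.05, 3 higher and 8 lower, and to the right 9 of 101 (8.91%), 6 higher and 3 lower. Of all genes, 2.03% had p below 0.05, 1.16% higher and 0.874% lower. The difference between the sides was not tested.

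**Figure D2:**
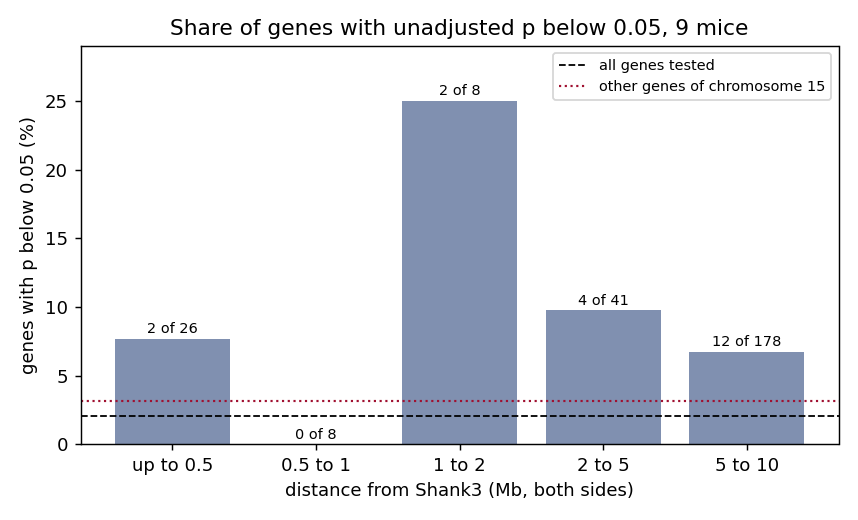
Bars show the share of genes with unadjusted edgeR p below 0.05 in 9 mice (y axis, percent) by distance from Shank3 on both sides (x axis, Mb), with the number of genes above each bar. The dashed line is the share over all genes tested (2.03%) and the dotted line that of the rest of chromosome 15 (3.18%), and the tallest bar, from 1 to 2 Mb, rests on 2 of 8 genes.

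The direct neighbours of Shank3 were looked at next. Gm15609, transcribed from the opposite strand within Shank3, was at 1.31 ± 0.330 CPM in the 5 Shank3Δ11(−/−) mice and 1.35 ± 0.136 CPM in the 4 Shank3(+/+) mice (mean ± SD, as in all that follows). To the right, Acr, which encodes the sperm protease acrosin and starts 8.07 kb from Shank3, was counted at 0.626, 0.611, 1.54, 2.00 and 1.97 CPM in KO1 to KO5 and at 0.800, 0.738, 0.887 and 0.911 CPM in WT1 to WT4. KO1 and KO2 lay below every Shank3(+/+) mouse and KO3 to KO5 above all of them, so the genotypes overlapped (log2 fold change 0.70, SE 0.37, p = 0.0826 in edgeR, exact permutation test p = 0.238).

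The next gene, Rabl2 (ENSMUSG00000022621, 89582533 to 89591923, minus strand), encodes a Rab-like small GTPase of cilia and sperm flagella and lies 22.3 kb from Shank3. Its level was 6.82, 7.57, 8.87, 9.09 and 7.36 CPM in KO1 to KO5 and 9.35, 9.15, 9.55 and 9.53 CPM in WT1 to WT4. All Shank3Δ11(−/−) mice lay below all Shank3(+/+) mice, with KO4 only just below WT2, the mouse next to it. The means were 7.94 ± 0.987 and 9.40 ± 0.184 CPM (log2 fold change -0.24, SE 0.12, p = 0.0678 in edgeR, exact permutation test p = 0.0397). Further right, Alg10b, a glucosyltransferase gene of N-glycosylation, had a log2 fold change of -0.12, the copine gene Cpne8 0.29 and the pseudogene Rpl31-ps8 -0.13, with p of 0.336, 0.196 and 0.316 in edgeR. Reads of Rpl31-ps8 may be shared with other copies of Rpl31.

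On the left, the 5 nearest genes were C230037L18Rik, Arsa, Mapk8ip2, C730034F03Rik and Chkb, all within 69.7 kb. Arsa, encoding the lysosomal arylsulfatase A, had 20.4 ± 3.49 CPM in Shank3Δ11(−/−) and 17.9 ± 4.98 CPM in Shank3(+/+). Chkb, encoding choline kinase beta, which makes phosphatidylcholine precursors in muscle, had 25.9 ± 2.23 and 25.5 ± 3.55 CPM. Mapk8ip2, encoding a scaffold of the JNK pathway, was at 0.390 ± 0.133 and 0.529 ± 0.214 CPM. In these 5 genes the genotypes overlapped and the smallest edgeR p was 0.234. Within 0.5 Mb of Shank3 only Dennd6b and Plxnb2 had p below 0.05.

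**Figure D3:**
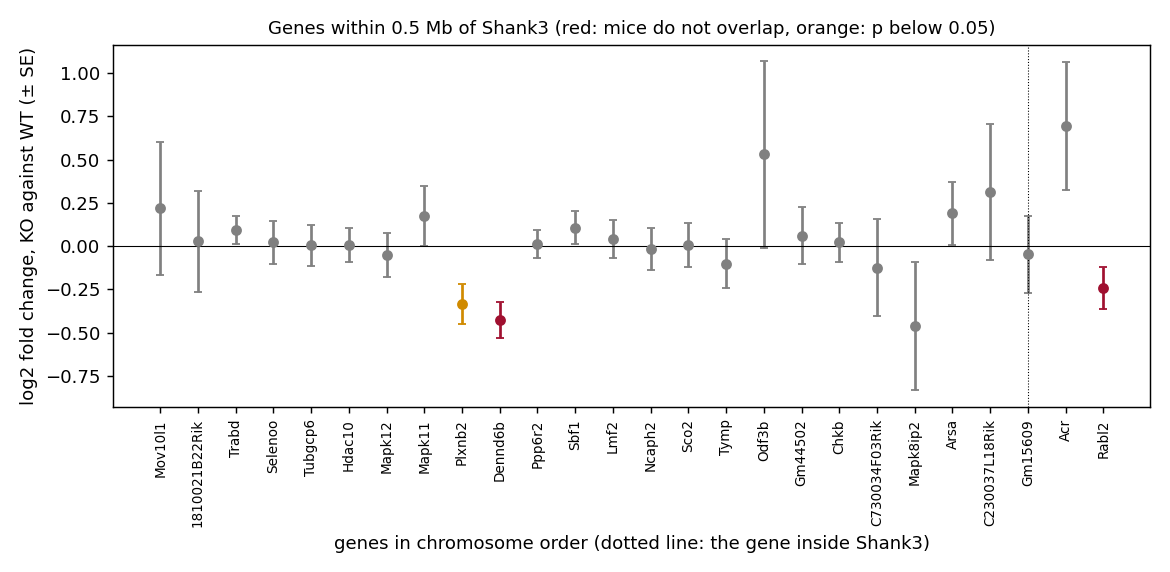
Log2 fold change of Shank3Δ11(−/−) against Shank3(+/+) with its standard error (y axis) of the 26 genes within 0.5 Mb of Shank3 that passed the filter, in order along the chromosome (x axis), with a dotted line at Gm15609 inside Shank3. Genes whose mice do not overlap are red and Plxnb2, with p below 0.05 in edgeR, is orange, and the genes between Dennd6b and Shank3 lie on both sides of zero.

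Dennd6b (ENSMUSG00000015377, 89182213 to 89196496, minus strand) encodes a DENN domain protein, a family that activates Rab GTPases in membrane traffic. It lies 0.303 Mb to the left of Shank3. Its level was 17.4, 19.6, 18.5, 16.5 and 16.9 CPM in KO1 to KO5 and 27.3, 23.9, 20.5 and 24.2 CPM in WT1 to WT4. KO2 came closest to WT3, and no mouse crossed over. The means were 17.8 ± 1.26 and 23.96 ± 2.76 CPM, a log2 fold change of -0.43 (SE 0.10, p = 0.00131 in edgeR, exact permutation test p = 0.00794). This exact p is the smallest that 5 against 4 mice allow. Mir6958 overlaps its exons on the same strand, so reads of both cannot be told apart.

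Its immediate neighbour Plxnb2 (ENSMUSG00000036606, 89155549 to 89180788, minus strand), a semaphorin receptor gene, was counted at 103, 109, 112, 98.7 and 95.0 CPM in KO1 to KO5 and 127, 101, 155 and 139 CPM in WT1 to WT4. WT2 lay among the Shank3Δ11(−/−) mice, while the other Shank3(+/+) mice lay above them. Plxnb2 had a log2 fold change of -0.34 (SE 0.12, p = 0.0126 in edgeR, exact permutation test p = 0.0397). Without WT3 the edgeR p was 0.0554. On the far side of Dennd6b, the phosphatase subunit gene Ppp6r2 had 43.8 ± 2.18 and 43.4 ± 2.70 CPM, and beyond Plxnb2 the p38 kinase gene Mapk11 had 5.90 ± 1.40 and 5.23 ± 0.314 CPM.

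Further to the left, Arhgap8 (ENSMUSG00000078954, 84720052 to 84772207, plus strand) encodes a GTPase-activating protein and lies 4.73 Mb from Shank3. It was counted at 0.751, 0.543, 0.723, 0.762 and 1.02 CPM in KO1 to KO5 and at 0.277, 0.295, 0.307 and 0.488 CPM in WT1 to WT4. KO2 was the lowest of its genotype and WT4 the highest of the other, and they remained apart. The mean level was 0.761 ± 0.172 against 0.342 ± 0.0981 CPM, a log2 fold change of 1.14 (SE 0.29, p = 0.00167 in edgeR, exact permutation test p = 0.00794). It reached the level of the filter in all 5 Shank3Δ11(−/−) mice and in 1 Shank3(+/+) mouse. Its first bases overlap Gm20556 on the other strand.

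Serhl (ENSMUSG00000058586, 83089506 to 83116674, plus strand), a serine hydrolase-like gene 6.38 Mb from Shank3, was lower in every Shank3Δ11(−/−) mouse. It had 12.1, 13.0, 13.96, 11.5 and 13.8 CPM in KO1 to KO5 and 16.8, 14.4, 16 and 18.0 CPM in WT1 to WT4. WT2 came closest to the Shank3Δ11(−/−) mice. The difference on the log2 scale was -0.34 (SE 0.11, p = 0.00807 in edgeR, exact permutation test p = 0.00794). Its exons overlap those of Gm17206 and Rrp7a on the opposite strand.

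Cbx7 (ENSMUSG00000053411, 79915807 to 79971119, minus strand), a Polycomb chromobox gene 9.53 Mb from Shank3, was counted at 1.31, 1.22, 1.26, 1.05 and 2.35 CPM in KO1 to KO5 and at 3.20, 2.27, 2.46 and 3.09 CPM in WT1 to WT4. KO5 lay between WT2 and WT3 and the other 4 Shank3Δ11(−/−) mice lay below all Shank3(+/+) mice. This gave a log2 fold change of -0.95 (SE 0.24, p = 0.00187 in edgeR, exact permutation test p = 0.0238). Its exons overlap those of Apobec3, a cytidine deaminase gene of antiviral defence on the other strand, which had a log2 fold change of -0.11 (p = 0.314 in edgeR, exact permutation test p = 0.0556).

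Of the remaining genes with p below 0.05 on the left, Parvg, an adhesion protein gene of blood cells, had a log2 fold change of 0.81 (p = 0.0124 in edgeR, exact permutation test p = 0.0397), with KO4 highest at 4.99 CPM. The trafficking gene Pheta2 had 0.27, and the cytochrome P450 gene Cyp2d22 -0.21, with p of 0.0274 and 0.0397 in edgeR. Pheta2 had p of 0.05 or more in 6 of the 19 alternatives tried, among them the fits without KO1, KO3, WT1 or WT3, and Cyp2d22 in 10, among them the comparison of the study. Cdpf1 and the tetratricopeptide repeat gene Ttc38, close to each other in the plot of fold change by distance, had -0.28 and -0.37 with p of 0.0373 and 0.0435 in edgeR, and each had p of 0.05 or more in 6 alternatives. Cdpf1, Cyp2d22, Pheta2, Ttc38, A130051J06Rik and Ccdc184 were chosen after their values were seen.

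On the right side, Kif21a (ENSMUSG00000022629, 90933276 to 91049948, minus strand) encodes a kinesin motor that restrains microtubule growth and lies 1.37 Mb from Shank3. Its level was 15.3, 14.8, 15.9, 16.6 and 14.99 CPM in KO1 to KO5 and 13.5, 10.7, 13.9 and 13.3 CPM in WT1 to WT4. Every Shank3Δ11(−/−) mouse lay above every Shank3(+/+) mouse, and WT2 was set apart at the low end. The means were 15.5 ± 0.729 and 12.8 ± 1.43 CPM (log2 fold change 0.27, SE 0.11, p = 0.0240 in edgeR, exact permutation test p = 0.00794).

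Abcd2, a peroxisomal fatty acid transporter gene at 1.59 Mb, was counted at 12.6, 9.88, 6.64, 7.75 and 18.6 CPM in KO1 to KO5 and at 6.71, 7.59, 7.95 and 4.88 CPM in WT1 to WT4. KO5 had the highest level, and KO3 and KO4 lay among the Shank3(+/+) mice. The log2 fold change was 0.71 (SE 0.27, p = 0.0240 in edgeR, exact permutation test p = 0.111) and 0.44 without KO5 (p = 0.0645 in edgeR). The summed level of 5 adipocyte markers was 1126 CPM in KO5, 186 to 403 CPM in the other Shank3Δ11(−/−) mice and 211 to 289 CPM in Shank3(+/+). Of these markers 4 passed the filter, 2 of them with p below 0.05, and none was at 0. Their part in the result was not tested.

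Cntn1 (ENSMUSG00000055022, 92051165 to 92341967, plus strand) encodes contactin-1, an adhesion molecule of neurons and glia, and lies 2.49 Mb from Shank3. It had 4.51, 3.77, 8.78, 9.30 and 4.71 CPM in KO1 to KO5 and 1.94, 1.45, 3.86 and 2.73 CPM in WT1 to WT4. KO2 lay just below WT3, and KO3 and KO4 were far above the rest. The log2 fold change was 1.33 (SE 0.34, p = 0.00201 in edgeR, exact permutation test p = 0.0238). The 5 Schwann cell and nerve markers summed to 104 to 421 CPM in Shank3Δ11(−/−) and 110 to 159 CPM in Shank3(+/+), with 1 of 5 at p below 0.05 and none at 0. KO5 had the highest sum and KO4 the lowest, and 4 of the 5 markers were higher in Shank3Δ11(−/−). Their part in the Cntn1 result was not tested. In bulk tissue, a different number of cells of a type and a different amount of RNA per cell cannot be told apart.

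At 6.23 to 6.26 Mb lie 2 antisense transcripts of Ano6, which encodes a calcium-activated phospholipid scramblase. Gm17546 (ENSMUSG00000078648, 95824458 to 95830072, minus strand), inside the span of Ano6, was counted at 0.532, 0.305, 1.23, 0.814 and 0.721 CPM in KO1 to KO5 and at 0.246, 0.207, 0.273 and 0.065 CPM in WT1 to WT4. All Shank3Δ11(−/−) mice lay above all Shank3(+/+) mice, with KO2 close to WT3, and no Shank3(+/+) mouse reached the level of the filter. The log2 fold change was 1.85 (SE 0.46, p = 0.00145 in edgeR, exact permutation test p = 0.0159).

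A130051J06Rik (ENSMUSG00000097643, 95787856 to 95791642, minus strand), at the start of Ano6, went the other way. It had 0.689, 1.43, 0.252, 0.394 and 0.266 CPM in KO1 to KO5 and 1.91, 2.16, 1.54 and 1.33 CPM in WT1 to WT4. Only KO2 reached the Shank3(+/+) range, just above WT4. The log2 fold change was -1.52 (SE 0.43, p = 0.00379 in edgeR, exact permutation test p = 0.0238). Ano6 itself had 0.15 (p = 0.139 in edgeR, exact permutation test p = 0.135), so that 3 genes on the same stretch of DNA had values of differing sign. Without knowledge of strand in the counting, reads of Ano6 and A130051J06Rik cannot be told apart where their exons overlap.

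Near the right end of the window, 1700120C14Rik (ENSMUSG00000100599, 99249511 to 99262044, plus strand), a processed transcript 9.69 Mb from Shank3, had 10.8, 14.6, 10.7, 11.7 and 4.10 CPM in KO1 to KO5 and 14.95, 17.0, 17.8 and 19.4 CPM in WT1 to WT4. KO5 was far below the other mice and KO2 just below WT1. The log2 fold change was -0.73 (SE 0.26, p = 0.0152 in edgeR, exact permutation test p = 0.0159). Its exons overlap those of Mcrs1 on the other strand, which had 0.927 times the Shank3(+/+) level.

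Ccdc184, a coiled-coil gene at 8.61 Mb, was counted at 0.908, 0.238, 0.157, 0.368 and 0.114 CPM in KO1 to KO5 and at 0.861, 1.77, 0.853 and 0.748 CPM in WT1 to WT4. KO1 lay within the Shank3(+/+) range and the other 4 Shank3Δ11(−/−) mice below it (log2 fold change -1.54, SE 0.50, p = 0.00862 in edgeR, exact permutation test p = 0.0397). Fkbp11, encoding a peptidyl-prolyl isomerase of the secretory pathway, had 12.4 ± 3.32 against 8.69 ± 0.928 CPM (log2 fold change 0.51, p = 0.0220 in edgeR, exact permutation test p = 0.0952). The membrane protein gene Tmem117 had 35.8 ± 4.93 against 28.9 ± 4.46 CPM (log2 fold change 0.31, p = 0.0349 in edgeR, exact permutation test p = 0.0794).

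**Figure D4:**
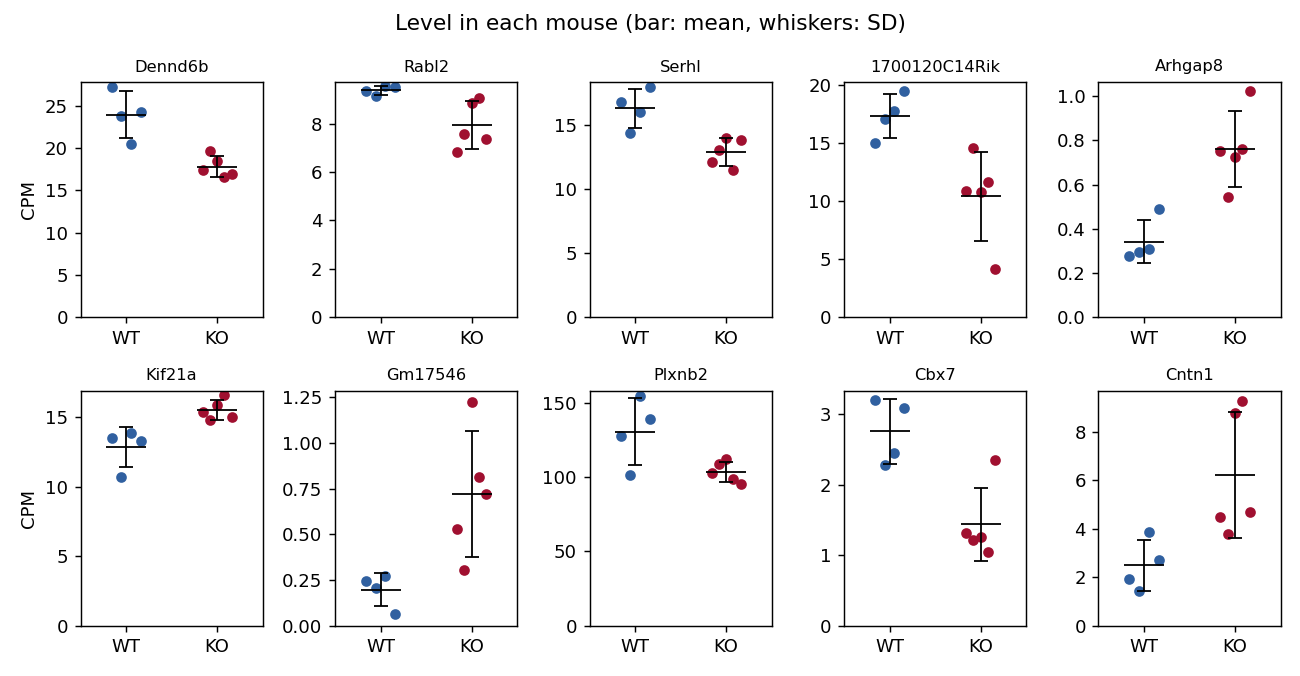
Level in each of the 9 mice (y axis, CPM, from 0) of the 7 genes whose genotypes do not overlap and of Plxnb2, Cbx7 and Cntn1, whose genotypes do, with Shank3(+/+) (WT, blue) and Shank3Δ11(−/−) (KO, red) side by side on the x axis. Bars are means and whiskers SD, and the gap between the genotypes is narrow in Rabl2.

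Runs of neighbours were sought because a linked segment would span genes that lie side by side. Sequence variants in such a segment need not alter each of its genes, nor all in the same direction. A run was taken as 2 or more consecutive genes that passed the filter and whose mice did not overlap in the same direction. No run was found among the 261 genes, nor among all 21683 neighbouring pairs of the genome (0%). The 7 genes that did not overlap were thus each flanked by genes that overlapped. A rule that was met nowhere in the genome cannot set the window apart from the rest, so no conclusion is drawn from it. Dennd6b and Plxnb2 were the only neighbours that both had p below 0.05 on the same side, 1 of 260 pairs (0.385%, beside 0.0969% of all pairs). Both neighbours had a log2 fold change of 0.2 or more in size on the same side in 11 of 260 pairs (4.23%, beside 3.72%). The same sign was found in 128 of 260 pairs (49.2%, beside 52.6%).

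With a looser rule, 3 or more consecutive genes with a log2 fold change of 0.2 or more in size on the same side, 1 run of 4 genes was found. It covers 129.8 kb and consists of Nfam1, Serhl, Gm17206 and Rrp7a, with log2 fold changes of -0.23, -0.34, -0.59 and -0.22. Nfam1 encodes an immune receptor, and Rrp7a, encoding a ribosomal RNA processing protein, had 31.7, 33.2, 38.9, 37.6 and 34.1 CPM in KO1 to KO5 and 39.2, 39.0, 38.3 and 47.1 CPM in WT1 to WT4 (p = 0.0447 in edgeR and 0.144 without WT4, exact permutation test p = 0.0476 in all mice). The exons of Serhl overlap those of Gm17206 and Rrp7a, so these 3 values are not separate measurements if strand was not used. Nfam1 fell under the limit of 0.2 without KO3, KO4 or WT1 (-0.09, -0.17 and -0.03) and Rrp7a without KO1 or WT4 (-0.19 and -0.14), which left runs of 3 genes. Genes in such a run made up 1.53% of the window, beside 2.01% of all genes, and the whole genome held 122 such runs. The window held 3 runs by this rule in the 7 mice of the study (4.2% of its genes, beside 2.8% of all genes), 3 without KO2 (3.86% beside 3.09%) and 3 without WT4 (3.42% beside 2.59%). It held 2 without KO4, WT1 or WT3 and 1 without KO1, KO3, KO5 or WT2, so the number of such runs rested on single mice.

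The longest stretch of genes on the same side ran over 11 genes and 377 kb, from Zbed4 to Hdac10, all higher in Shank3Δ11(−/−) by a median of 0.05 on the log2 scale. Next came 8 genes over 258.4 kb from Ep300 to Gm8444, all lower with a median of -0.09. The longest in the genome held 26 genes.

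The study's own comparison used KO1, KO3 and KO5, and in these 7 mice 21 of 262 genes had p below 0.05 in edgeR (8.02%, beside 2.08% of all genes), 10 higher (1.16% of all genes) and 11 lower (0.917%). None was called at FDR below 25% with genotype alone in the model, and Cntn1 was with the replicate block (FDR = 0.139). Of the 21 genes with p below 0.05, 13 were also among the 20 genes of the 9 mice, which include these 7 mice. Mice did not overlap in 21 of 262 genes (beside 2.87% of all genes), 13 higher (1.37% of all genes) and 8 lower (1.5%). With 3 against 4 mice the exact test cannot go below 0.0286. Runs then numbered 2, Ano6 with Gm17546 (log2 fold changes 0.17 and 2.04) and Rpap3 with Endou (-0.26 and -0.73), where 0.119% of all neighbouring pairs did so. Gm17546 lies inside the span of Ano6, and in the 9 mice it passed the filter through Shank3Δ11(−/−) alone. Its part in a run is therefore no sign of a difference. With 1 mouse left out of the 9, Serhl with Gm17206 formed a run without KO5 (log2 fold changes -0.37 and -0.72, beside 0.00466% of all pairs) and Plxnb2 with Dennd6b without WT2 (-0.44 and -0.43, beside 0.0457%). DESeq2 called A130051J06Rik in the 7 mice (log2 fold change -2.10, FDR = 0.00672), where 0.0275% of all genes were called. An exact permutation test p below 0.05 was found for 21 of the 261 genes in the 9 mice (8.05%, beside 2.23% of all genes), of which 16 were among the 20 of edgeR. The remaining 5 were 1110025M09Rik, Snu13, Tdg-ps, Rabl2 and Prickle1.

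The genes were also grouped by what they are known to do, and the counts with p below 0.05 stand beside 2.03% of all genes. Of 26 metabolic and mitochondrial genes that passed the filter, 15 were higher and 11 lower (median on the log2 scale 0.0068), and only Abcd2 had p below 0.05. The heme transporter gene Slc48a1 had 30.2 ± 3.32 against 26.2 ± 2.59 CPM (p = 0.0840 in edgeR, exact permutation test p = 0.0952). Ppara, the fatty acid oxidation regulator, had a log2 fold change of -0.94 (p = 0.111 in edgeR, exact permutation test p = 0.190), with -0.55 without WT3 and -1.28 without KO3 (p = 0.327 and 0.0366 in edgeR). Of 24 chromatin and transcription genes, 12 were higher and 12 lower, with Cbx7 alone at p below 0.05. Snu13, a spliceosome and nucleolar protein gene, had -0.17 (p = 0.0791 in edgeR, exact permutation test p = 0.0317).

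Among 22 signalling and adhesion genes 11 were higher and 11 lower, and 3 had p below 0.05, Arhgap8 and Parvg higher and Plxnb2 lower. Among 19 cytoskeletal and tubulin genes 9 were higher and 10 lower, with Kif21a alone at p below 0.05. The tubulin ligase genes Ttll8 and Ttll12 had log2 fold changes of 0.88 and -0.25 (p = 0.0881 and 0.101 in edgeR, exact permutation test p = 0.103 and 0.206), with -0.13 for Ttll12 without WT4. The 10 genes of matrix and secreted proteins were 5 higher and 5 lower and held Cntn1 and Fkbp11. None of 7 Wnt, hedgehog and planar polarity genes had p below 0.05 in edgeR, and Prickle1 had 0.13 (p = 0.140, exact permutation test p = 0.0317). Transporter and channel genes (4 higher, 5 lower) held Tmem117, immune genes (1 higher, 6 lower, median -0.11) held Parvg, and the synapse and scaffold genes of the locus (5 higher, 6 lower) held Cntn1. Beside the median over all genes, no group other than the immune genes had a median over 0.03 in size in the 9 mice. In the 7 mice the immune genes had a median of -0.15 and the synapse and scaffold genes 0.13, a change of sign from -0.03.

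At the limits of the window, Kdelr3, an ER retention receptor gene just inside on the left, had 41.5 ± 5.05 against 35.6 ± 2.55 CPM, and the kinase gene Csnk1e just outside had a log2 fold change of 0.11. On the right Bcdin3d just inside had 0.07 and Racgap1 just outside had 0.02.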

How the data were processed

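The deposited values are the authors' raw counts of reads per Ensembl gene, without normalization. Per the study's methods reads were mapped with HISAT2 to mm10 and counted with featureCounts (Subread). Not given in the sources used here are the annotation release, the strandedness and how multi-mapped reads were treated. The 9 libraries were analysed together, since the question concerns all 9 mice, and the study's 7 mice were analysed beside them. The members and lists were chosen with earlier results of these data known.

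Genes were filtered with filterByExpr (minimum count 10, minimum total count 15), TMM-scaled and tested over the whole table with edgeR 4.0.16 (robust quasi-likelihood, 2-sided) in R 4.3.3, with Benjamini-Hochberg adjustment. A call needed p below 0.05 and FDR below 25%. Single genes were also tested with a 2-sided exact permutation test of mean log2 CPM (prior count 2) over 126 splits. Standard errors (SE) are those of the model. Positions came from GENCODE M21 (55230 of 55471 IDs). Named genes were those whose mice do not overlap, the 5 nearest to Shank3 on each side, the 5 of highest level, any called gene, up to 3 per list and members of runs. Results for some single genes are left out. Alternatives were the 7 mice, other filters and scalings (RLE, upper quartile, library totals), DESeq2 1.42.0, limma-voom (limma 3.58.1), the replicate number as a block, Xist against Y-linked genes as a term, and each mouse left out. Tests were tried on simulated data. Figures were drawn with matplotlib 3.10.9.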

Additional observations from a re-analysis of the deposited data

Results flagged for a closer look

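In 7 of 100 groups of mice looked at (50 genes in 2 genotypes) the highest or lowest mouse stood apart by Dixon's criterion, and chance gives about 1 in 20. Among Shank3Δ11(−/−) mice, KO5 stood above the others in Cbx7 with 2.35 CPM, beside 1.05 to 1.31 CPM. KO3 stood below the others in Irak4, a kinase gene of innate immune signalling, with 5.16 CPM beside 6.83 to 7.29 CPM, and in the ligand gene Wnt10b with 1.70 CPM beside 4.07 to 4.44 CPM. Among Shank3(+/+) mice, WT4 was highest in Rrp7a with 47.1 CPM, beside 38.3 to 39.2 CPM, and in Arhgap8 with 0.488 CPM, beside 0.277 to 0.307 CPM. WT2 was highest in Ccdc184 with 1.77 CPM, beside 0.748 to 0.861 CPM. WT3 was lowest in the calcium channel subunit gene Cacnb3 with 19.9 CPM, beside 26.5 to 27.8 CPM.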

How the results depend on the processing

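Of the 20 genes with unadjusted p below 0.05 in edgeR, 9 kept it and their direction in every alternative that gave them a value. 1700120C14Rik, Cbx7, Cntn1, Dennd6b and Serhl had a value in all 19, A130051J06Rik, Arhgap8 and Ccdc184 in 18, and Gm17546 in 15, since these 4 did not pass the filter in the others. In the main fit these 4 passed the filter through the genotype where they are high, so that they kept p and direction is no sign of a difference. The other 11 had p of 0.05 or more in some, Cyp2d22 in 10, Rrp7a in 9, Tmem117 in 7, Pheta2, Cdpf1 and Ttc38 in 6 each, Kif21a in 4, Fkbp11 in 3, Abcd2 in 2, Parvg in 1 (the 7 mice) and Plxnb2 in 1 (without WT3). None of the 20 changed direction where tested. The number with p below 0.05 was 16 to 24 with each mouse left out (6.15% to 9.13%, beside 1.39% to 3.46% of all genes) and 12 of the 160 genes whose exons overlap no other gene (7.5%, beside 2.03% of all genes). Overlaps were looked up only in the window, so the shares of all genes set beside these 160 include overlapping genes. Genes whose mice do not overlap numbered 21 in the 7 mice (8.02%, beside 2.87% of all genes), 12 with library totals alone (4.6%, beside 0.828%), 8 to 16 with each mouse left out (3.12% to 6.18%, beside 1.06% to 2.01%, fewest without KO3, most without KO2 or WT3) and 3 of the 160 genes without exon overlaps (1.88%, beside 0.686%). Runs numbered 2 in the 7 mice and 0 to 1 with each mouse left out (1 without KO5 and 1 without WT2). Genes called at FDR below 25% numbered 1, Cntn1, with DESeq2 (0.383%, beside 0.0322% of all genes) and 1, Cntn1, with the replicate block (FDR = 0.0741, and 0.139 in the 7 mice). The share of all genes called with the block was not worked out. The median log2 fold change was -0.026 in the 7 mice and -0.027 with library totals alone, and -0.018 to 0.0054 with each mouse left out. The median size was 0.21 with no filter and 0.10 to 0.13 with each mouse left out. In the 7 mice the number with p below 0.05 was 32 with no filter (7.88%, beside 2.58% of all genes), 11 to 25 with each mouse left out (4.1% to 9.33%, beside 1.01% to 4.35%, with 11 and 1.01% without KO5) and 31 with Xist against Y-linked genes as a term (11.8%, beside 2.71%). The cause was not tested.

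Same-numbered mice correlated at 0.373, 0.0524, 0.357 and 0.101. The highest correlation with a Shank3(+/+) mouse of another number was 0.134, 0.269, 0.282 and 0.0415. Number 2 thus correlated more with another mouse, and the numbers were not taken as pairs. With the replicate block 22 of 261 genes had p below 0.05 in edgeR (8.43%, beside 2.08% of all genes) and 25 of 262 in the 7 mice (9.54%, beside 3.87%). With the block in all mice Ppara had -0.56 and Arsa 0.24, each with p below 0.05 in edgeR. Of 937 alternative values of 50 named genes, 14 changed sign, all of genes with p of 0.05 or more. Chkb was -0.0053 with library totals alone and -0.0058 with the replicate block, Dhh -0.047 with the replicate block and Ddx17 -0.022 in the 7 mice. With each mouse left out, Ddx17 ran from -0.038 to 0.074, Chkb from -0.060 to 0.089, C730034F03Rik from -0.29 to 0.087, Wnt10b from -0.21 to 0.092, Dhh from -0.044 to 0.22 and Tuba1a from -0.16 to 0.013. The number of mice and the low counts of Arhgap8, Gm17546, A130051J06Rik and Ccdc184 limit precision.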

Other observations

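Ppara was counted at 14.6 and 11.2 CPM in WT3 and WT4 and at 1.02 to 8.05 CPM in the other 7 mice, with the lowest value in KO5.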
